A study of Mus musculus with 36 samples.

Results

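Npas4, Nr4a1, Nr4a2 and Nr4a3 are 4 of the 52636 genes measured by RNA sequencing in the anterior cingulate cortex (aCC) of 36 female mice, and all 4 passed the filter on low values that left 25572 genes for testing. They were chosen by name, as transcription factors induced by neuronal activity, with their levels in these groups already known. For that reason their differences between groups are described with standard errors, and where it is said which of them passed a threshold over the whole table, nothing is read from it. Each library came from 1 mouse of the strain labelled C57BL/6NTac-Brd1 (line Brd1tm1.2Arte/AborgMmucd by the study's methods), aged 8 to 11 weeks, that was wild type (WT) or heterozygous for a targeted deletion in Brd1 (Brd1+/-), a gene for a scaffold protein of histone acetyltransferase complexes. The 4 groups were WT with saline (WT vehicle, n = 8), Brd1+/- with saline (Brd1+/- vehicle, n = 9), WT with 10 mg/kg imipramine (WT IMN, n = 10) and Brd1+/- with 10 mg/kg imipramine (Brd1+/- IMN, n = 9). Imipramine is a tricyclic antidepressant that blocks the reuptake of serotonin and noradrenaline. By the study's methods, every mouse was injected under the skin on consecutive days, underwent tail suspension on the first day and an open field and forced swim on the last, and was killed about an hour after the swim. All 4 groups therefore share that handling, no group was left unhandled, and the study asked how the genotype and the drug alter expression against it. The deletion was made with loxP sites around a block of Brd1 exons and is carried in every cell of the Brd1+/- mice, so these animals model lifelong loss of 1 allele.

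Npas4 and the NR4A genes belong to the immediate-early genes, whose transcription starts within minutes of synaptic input because their promoters are already bound by factors such as CREB, SRF and MEF2 that calcium signalling switches on. Npas4 encodes a neuron-specific bHLH-PAS factor that pairs with ARNT proteins and controls genes for inhibitory and excitatory synapses. Nr4a1, Nr4a2 and Nr4a3 encode the orphan nuclear receptors Nur77, Nurr1 and Nor-1, which act without a known hormone at a DNA site called NBRE, and Nr4a1 and Nr4a2 can also pair with the retinoid X receptor. Nr4a2 has a further, activity-independent role as an identity factor of dopamine neurons, and in the cortex it marks the claustrum and the deepest cortical cells.

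The promoter sequences of the 4 genes are shown because CREB acts on many activity-induced genes through cAMP response elements. RefSeq windows of 300 bases (250 before and 50 after the start site, build GRCm38.p6) were searched on both strands for the CRE half-site TGACG, which reads CGTCA on the other strand. Capitals mark the half-sites. Npas4 had 2 in its window, and 30 bases that hold both are given, at chr19:4990128-4990157 on the minus strand, inside an exon of a longer GENCODE transcript. Nr4a1 had 4, all within the 250 bases before its start at chr15:101266596-101266845 on the plus strand, which lie in an intron of longer Nr4a1 transcripts. Nr4a2 also had 4, in the 250 bases upstream of the gene at chr2:57124004-57124253 on the minus strand. Nr4a3 had 4 as well, of which 3 fall in the 98 bases given here, upstream of the gene at chr4:48045055-48045152 on the plus strand.
Npas4: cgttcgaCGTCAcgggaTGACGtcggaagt
Nr4a1: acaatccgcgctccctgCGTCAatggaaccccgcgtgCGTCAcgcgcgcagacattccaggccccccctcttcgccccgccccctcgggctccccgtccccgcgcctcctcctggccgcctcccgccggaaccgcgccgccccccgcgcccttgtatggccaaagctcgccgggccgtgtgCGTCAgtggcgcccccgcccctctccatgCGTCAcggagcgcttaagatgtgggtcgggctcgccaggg
Nr4a2: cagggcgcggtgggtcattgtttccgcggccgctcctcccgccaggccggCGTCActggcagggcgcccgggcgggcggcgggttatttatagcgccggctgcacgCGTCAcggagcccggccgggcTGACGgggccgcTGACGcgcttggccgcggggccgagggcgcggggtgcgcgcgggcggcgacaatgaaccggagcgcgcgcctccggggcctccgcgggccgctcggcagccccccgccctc
Nr4a3: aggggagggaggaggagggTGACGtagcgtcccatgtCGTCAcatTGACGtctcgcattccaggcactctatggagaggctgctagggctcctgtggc

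**Figure D1:**
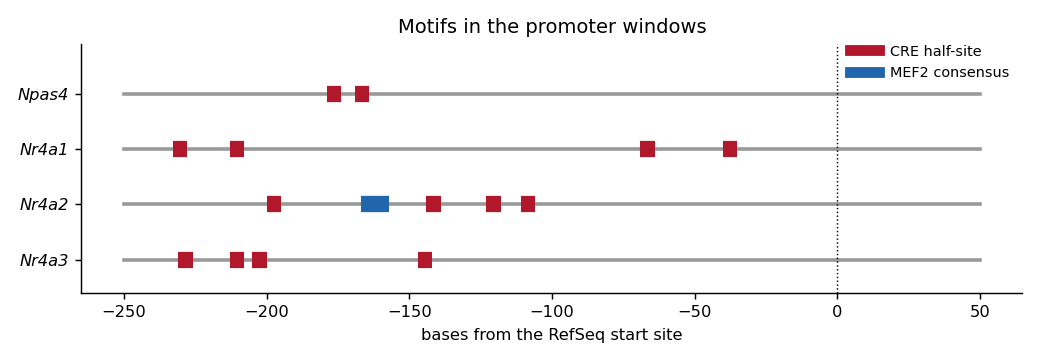
Positions of motifs in the RefSeq promoter windows of the 4 genes. The x axis gives bases from the start site (dotted line), grey lines show the 300 bases searched, red blocks the CRE half-sites and the blue block the MEF2 consensus. Npas4 has 2 half-sites and each NR4A gene has 4, all upstream of the start.

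At least 1 CRE half-site was found in 20.8% of 32851 RefSeq windows of the same length, at least 2 in 5.01% and at least 4 in 0.231%. Of 19 other immediate-early genes, 14 had a window, with 22 windows between them. In any of their windows, 12 of these genes held at least 1 half-site, 7 at least 2 and 0 at least 4. These counts are per gene, so they are not on the scale of the shares per window. None of the 4 windows held the full CRE TGACGTCA, which overlaps 2 half-sites by its letters and occurred in 1.79% of all windows. The CArG box, the site of SRF, was absent from the 4 windows and present in 1.63% of all windows, and the NBRE, searched as AAAGGTCA, was absent and present in 1.51%. The Nr4a2 window held 1 match to the MEF2 consensus, found in 3.19% of all windows. These matches describe letters in the reference genome, and no binding was measured.

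Before the levels of the 4 genes are given, 2 libraries need naming. WT vehicle replicate 1 had 2654 TPM over 7 oligodendrocyte markers, while the other WT vehicle libraries lay between 181 and 895 TPM. WT IMN replicate 7 and Brd1+/- IMN replicate 6 had higher sums, of 3282 and 3224 TPM. Both were kept in the fits without WT vehicle replicate 1, so those fits take a library high in these markers from the vehicle side only. Brd1+/- vehicle replicate 6 had 1478 TPM over 9 striatal neuron markers and 3891 TPM over 5 choroid plexus markers, where the medians of the 4 groups did not exceed 208 and 2.01 TPM. Differences of the 4 genes in WT mice and between genotypes with vehicle are given with and without WT vehicle replicate 1. Those with IMN in Brd1+/- mice are given without Brd1+/- vehicle replicate 6 near the end. Correlations among the 4 genes are given with and without both libraries. Within-group SDs and r values with list genes use all 36 libraries unless stated. Medians reached 1 TPM for 6 of 6 cortical glutamatergic, 6 of 6 GABAergic, 8 of 9 striatal, 7 of 7 oligodendrocyte and 0 of 5 choroid plexus markers, so this count shows neurons and glia but does not single out cortex. Brd1 itself averaged 26.4 ± 3.03 TPM (SD, n = 8) in WT vehicle against 16.8 ± 2.72 TPM (SD, n = 9) in Brd1+/- vehicle, with no overlap. Under IMN the Brd1 means were 23.3 ± 3.43 TPM (SD, n = 10) and 16.8 ± 2.102 TPM (SD, n = 9), and the groups overlapped. TPM record abundance per length relative to the library total and keep no read depth, so the error of each value is the spread between mice.

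All 4 genes were detected in every library. Nr4a1 had the highest level of the 4 on the TPM scale, with a mean over the 36 libraries of 156.9 TPM and a range of 89.6 to 239.3, above 97.2% of the genes tested. Npas4 and Nr4a3 were similar, at means of 27.5 and 26.1 TPM. Nr4a2 was the lowest, with a mean of 10.7 TPM and a range of 4.82 to 20.04. Nr4a1 therefore exceeded the other 3 genes in every one of the 36 libraries.

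Npas4 was the gene with the widest separation by treatment. In WT vehicle the Npas4 level ran from 12.4 to 63.5 TPM with a median of 36.5, and in WT IMN from 11.8 to 25.4 TPM with a median of 18.9. In Brd1+/- vehicle it ran from 23.9 to 63.3 TPM with a median of 31.3, and in Brd1+/- IMN from 11.4 to 29.4 TPM with a median of 18.3. All 10 WT IMN libraries lay below the WT vehicle median, but the groups overlapped because of WT vehicle replicate 1, the lowest vehicle library. Without it, all 10 IMN libraries lay below the other 7 vehicle libraries, a pattern met by 0.0899% of the genes tested. In Brd1+/- mice 8 of 9 IMN libraries lay below every vehicle library, as did at least that many for 0.043% of genes.

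In WT mice the mean Npas4 level with vehicle was 39.6 ± 17.0 TPM (SD, n = 8), and with IMN it was 18.4 ± 4.54 TPM (SD, n = 10). The Brd1+/- vehicle mean was 35.9 ± 14.2 TPM (SD, n = 9), and the Brd1+/- IMN mean was 18.6 ± 5.54 TPM (SD, n = 9). The step from the vehicle groups to the IMN groups exceeded these SDs, while the 2 genotypes differed by less than the SD under either treatment. On the log2(TPM + 0.5) scale, Npas4 was lower with IMN by 0.98 in WT mice (log2 difference -0.98, SE 0.24), and the difference was -1.20 (SE 0.18) without WT vehicle replicate 1. In Brd1+/- mice the Npas4 log2 difference was -0.90 (SE 0.20), so the IMN level was 53.7% of the vehicle level, against 50.5% in WT mice. Leaving out any 1 library kept it between -1.20 and -0.87 in WT mice and between -0.99 and -0.79 in Brd1+/- mice.

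**Figure D2:**
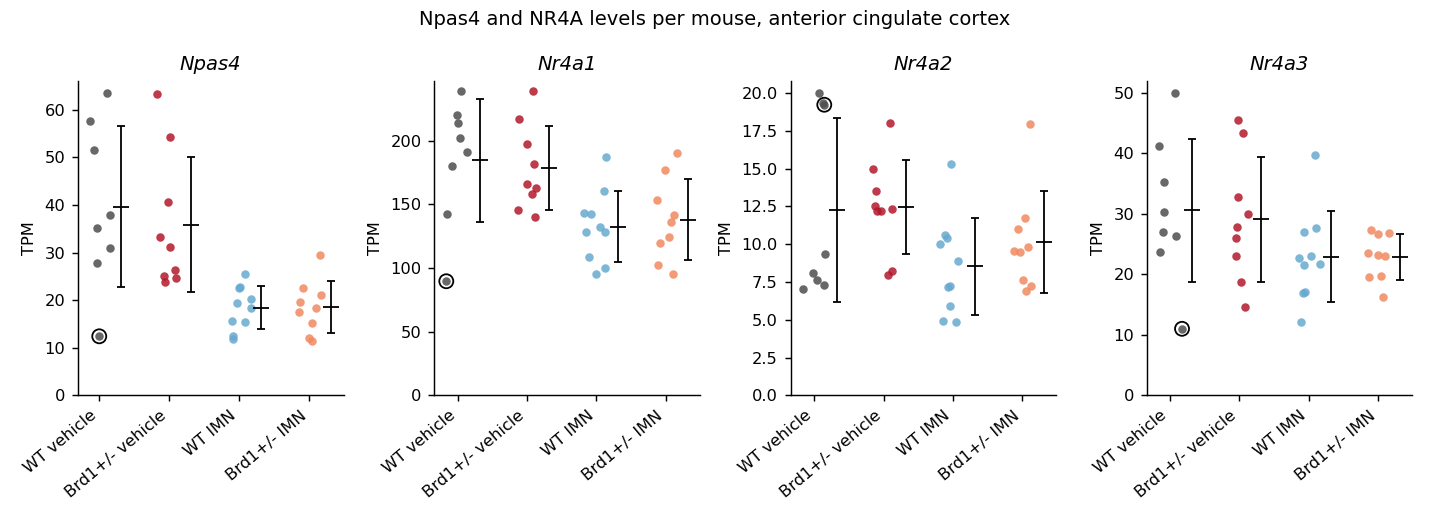
Levels of Npas4, Nr4a1, Nr4a2 and Nr4a3 in TPM (y axes, starting at 0) by group (x axis). Each point is 1 library from 1 mouse, the bar beside each group is the mean with its SD, and the ring marks WT vehicle replicate 1. Npas4 lies between 11.4 and 29.4 TPM in the IMN groups and between 12.4 and 63.5 TPM in the vehicle groups, and the ringed library is at the bottom of its group for every gene but Nr4a2.

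Nr4a1, the most abundant NR4A receptor, was also lower with IMN, by a smaller ratio. Its level ran from 89.6 to 239.3 TPM with a median of 196.6 in WT vehicle, and from 95.5 to 186.8 TPM with a median of 130.1 in WT IMN. In Brd1+/- vehicle it ran from 140.3 to 238.9 TPM with a median of 165.5, and in Brd1+/- IMN from 95.1 to 190.1 TPM with a median of 136.5. The vehicle and IMN ranges of Nr4a1 overlapped in both genotypes. The means were 184.7 ± 48.3 TPM (SD, n = 8) in WT vehicle and 132.5 ± 27.8 (SD, n = 10) in WT IMN, with a log2 difference of -0.45 (SE 0.17). Without WT vehicle replicate 1, whose 89.6 TPM was the lowest Nr4a1 level of all libraries, the log2 difference was -0.59 (SE 0.13). In Brd1+/- mice the Nr4a1 means were 178.5 ± 33.3 (SD, n = 9) and 137.8 ± 31.9 TPM (SD, n = 9), with a log2 difference of -0.39 (SE 0.13).

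Nr4a3 was lower with IMN on average, with wide overlap. In WT vehicle its level ran from 11.0 to 49.95 TPM with a median of 28.6, and in WT IMN from 12.1 to 39.7 TPM with a median of 22.2. In Brd1+/- vehicle it ran from 14.7 to 45.5 TPM with a median of 27.7, and in Brd1+/- IMN from 16.2 to 27.3 TPM with a median of 23.1. Beside that overlap, the Brd1+/- IMN libraries were the most uniform, with a coefficient of variation of 16.5% against 35.5% in Brd1+/- vehicle. Mean Nr4a3 with vehicle was 30.6 ± 11.8 TPM (SD, n = 8) in WT mice, close to 29.1 ± 10.3 TPM (SD, n = 9) in Brd1+/- mice. With the drug, WT mice had 22.9 ± 7.53 TPM (SD, n = 10), level with 22.9 ± 3.78 TPM (SD, n = 9) in Brd1+/- mice. No step between neighbours in that order exceeded the larger SD. The Nr4a3 log2 difference with IMN was -0.36 (SE 0.24) in WT mice and -0.28 (SE 0.18) in Brd1+/- mice. The WT value was -0.55 (SE 0.19) without WT vehicle replicate 1.

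Nr4a2, the receptor known from dopamine neurons, was spread differently among the mice. In WT vehicle its level ran from 7.06 to 20.04 TPM with a median of 8.74, and in WT IMN from 4.82 to 15.3 TPM with a median of 8.09. The WT vehicle libraries fell apart into 3 at 19.2, 19.4 and 20.04 TPM and 5 between 7.06 and 9.39 TPM. One of the 3 high libraries was replicate 1, which was the lowest of its group for the other 3 genes. In Brd1+/- vehicle Nr4a2 ran from 7.94 to 18.05 TPM with a median of 12.4, and in Brd1+/- IMN from 6.90 to 17.96 TPM with a median of 9.56. The vehicle and IMN ranges of Nr4a2 overlapped in both genotypes. Mean Nr4a2 was highest with vehicle, at 12.4 ± 3.11 TPM (SD, n = 9) in Brd1+/- mice and 12.3 ± 6.07 TPM (SD, n = 8) in WT mice. It was 10.2 ± 3.36 TPM (SD, n = 9) in Brd1+/- IMN and 8.54 ± 3.23 TPM (SD, n = 10) in WT IMN, and no step between neighbours in that order exceeded the larger SD. The log2 difference with IMN was -0.44 (SE 0.25) in WT mice and -0.30 (SE 0.17) in Brd1+/- mice, and without WT vehicle replicate 1 the WT value was -0.33 (SE 0.25).

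With both genotypes in 1 fit, all 4 genes were lower with IMN, where 51% of all genes tested had a log2 difference below 0. The log2 differences were -0.94 (SE 0.16) for Npas4, -0.42 (SE 0.11) for Nr4a1, -0.37 (SE 0.16) for Nr4a2 and -0.32 (SE 0.15) for Nr4a3, while the median over all genes was -0.0023. Npas4 alone of the 4 was among the 70 genes with an adjusted p under 0.05 in that fit by limma, which are 0.274% of all genes, and Npas4 and Nr4a1 were among the 1.94% lower at an unadjusted p under 0.01. Without WT vehicle replicate 1, Npas4 and Nr4a1 were among 170 such genes, or 0.665%. In WT mice alone no gene reached that level (0% of genes, with 1687 at an unadjusted p under 0.05), and 1 of the 4, Npas4, was lower at an unadjusted p under 0.01, as were 1.15% of genes. Without WT vehicle replicate 1, Npas4 was among the 32 genes (0.125%) at an adjusted p under 0.05 in WT mice. In Brd1+/- mice, 2 genes (0.00782%) reached an adjusted p under 0.05 and none was of the 4, and Npas4 and Nr4a1 were among the 0.551% of genes lower at an unadjusted p under 0.01. These counts place the genes in the whole table and are not evidence for them, since the genes were chosen with these values in view. In bulk tissue, fewer cells that transcribe a gene and less of its RNA per cell cannot be told apart.

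With all libraries, the genotype differences of the 4 genes lay between -0.09 and 0.26 on the log2 scale. With vehicle, the log2 differences of Brd1+/- from WT were -0.09 (SE 0.28) for Npas4, -0.01 (SE 0.16) for Nr4a1, 0.12 (SE 0.24) for Nr4a2 and -0.04 (SE 0.26) for Nr4a3. Without WT vehicle replicate 1 they became -0.30 (SE 0.22), -0.16 (SE 0.12), 0.23 (SE 0.23) and -0.23 (SE 0.21). Under IMN the log2 differences were 0.00 (SE 0.17) for Npas4, 0.05 (SE 0.14) for Nr4a1, 0.26 (SE 0.20) for Nr4a2 and 0.04 (SE 0.16) for Nr4a3. The difference between the IMN effects of the 2 genotypes, the interaction, lay between 0.07 and 0.15 for the 4 genes, with SEs of 0.22 to 0.33. It moved to 0.30 (SE 0.29) for Npas4, 0.21 (SE 0.19) for Nr4a1, 0.28 (SE 0.27) for Nr4a3 and 0.04 (SE 0.31) for Nr4a2 without WT vehicle replicate 1. These SEs are close in size to the IMN differences of Nr4a2 and Nr4a3, so genotype differences of that size could not be resolved.

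**Figure D3:**
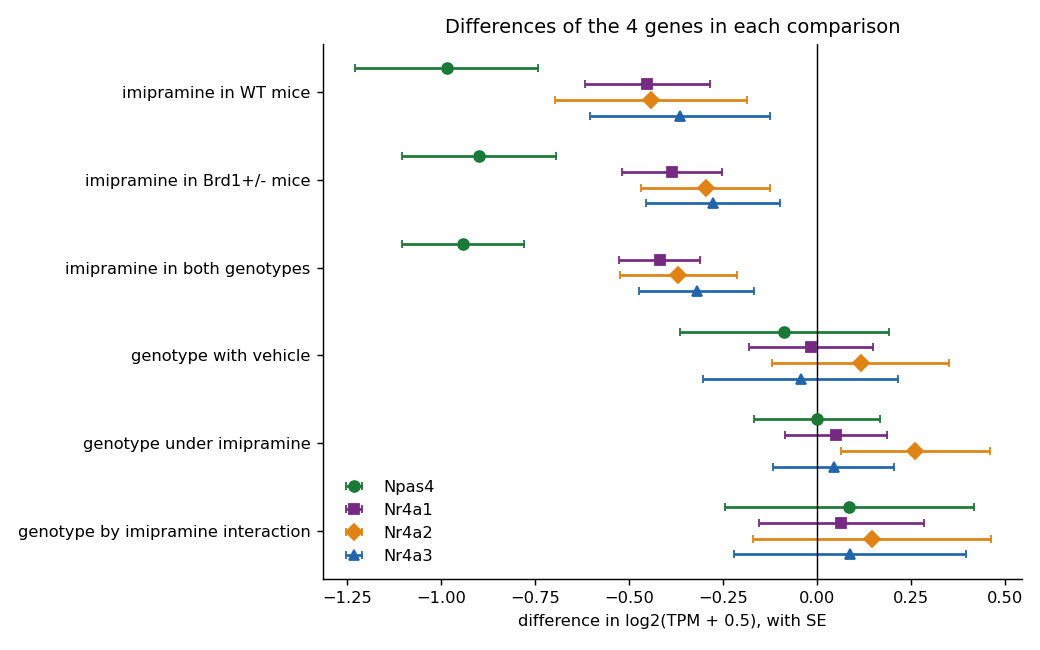
Differences of the 4 genes in each comparison. The x axis is the difference in log2(TPM + 0.5) with its SE, the rows are the comparisons (IMN minus vehicle, Brd1+/- minus WT, and the interaction), and the vertical line marks 0. With IMN the Npas4 points lie at -0.98, -0.90 and -0.94, apart from the NR4A points between -0.45 and -0.28, whereas the genotype points lie between -0.09 and 0.26.

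Npas4 varied more between mice of 1 group than most genes of its level. Its SD of log2(TPM + 0.5) within groups was 0.52, and of the 500 genes closest in mean level 14 had a larger one, where their median was 0.21. Nr4a3 stood likewise, with an SD of 0.48 that 18 of its 500 neighbours exceeded. For Nr4a1 the SD was 0.34, exceeded by 53 of 500, and for Nr4a2 it was 0.49, exceeded by 62 of 500.

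Within groups, Npas4, Nr4a1 and Nr4a3 had positive correlations from mouse to mouse, and those of Nr4a2 with them were near 0. After group means were removed, Pearson's r over the 36 libraries was 0.71 between Npas4 and Nr4a1, 0.56 between Npas4 and Nr4a3 and 0.44 between Nr4a1 and Nr4a3. Without the 2 libraries named above (n = 34) these became 0.56, 0.40 and 0.23. Nr4a2 had r values of -0.14 with Npas4, -0.19 with Nr4a1 and -0.01 with Nr4a3, which became 0.05, -0.01 and 0.17 without the 2 libraries, the last of them not far below the 0.23 of Nr4a1 and Nr4a3. The points share a library, a total and a punch, so these are descriptions. Over the 19 other immediate-early genes the median r was 0.61 with Nr4a1, 0.52 with Npas4, 0.43 with Nr4a3 and -0.06 with Nr4a2, where the medians over all genes lay between -0.04 and 0.12. An r over 0.5 was found for 14 of the 19 with Nr4a1 (3.15% of all genes), 10 with Npas4 (3.59%), 8 with Nr4a3 (8.78%) and 0 with Nr4a2 (2.49%).

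The genes most like each of the 4 were ranked by the same r among 17695 genes that averaged 1 TPM or more. For Npas4 they were Nectin2 (r 0.81), an adhesion protein, Btg2 (0.74), itself an immediate-early gene, Bdnf (0.74), the neurotrophin, Csnk2a2 (0.73), a casein kinase subunit, and Mamld1 (0.72). For Nr4a1 they were the chaperone gene Dnajb5 (0.86), Fos (0.84), the kinase gene Camk1g (0.82), the beta adrenergic receptor gene Adrb1 (0.80) and Stk40 (0.79). The Nr4a3 list was Lypd1 (0.87), Ets2 (0.85), the protocadherin gene Pcdh17 (0.84), Crim1 (0.84) and Slc3a2 (0.83). Nr4a2 had another set, namely Zfpm2 (0.82), Vash2 (0.74), Ttc9 (0.74), Enpp6 (0.73), which is known from newly formed oligodendrocytes, and Gab1 (0.73). Without the 2 libraries (n = 34), Nectin2, Dnajb5, Zfpm2 and Lypd1 were still first, with r of 0.72, 0.85, 0.81 and 0.83, but of the 5 genes only 3 stayed among the first 5 for Npas4, 1 for Nr4a1, 4 for Nr4a2 and 3 for Nr4a3.

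Myelin content moved with the 4 genes, in opposite directions. The summed level of the 7 oligodendrocyte markers, all of them detected, ran from 181 to 2654 TPM in WT vehicle, 228 to 1657 in Brd1+/- vehicle, 221 to 3282 in WT IMN and 219 to 3224 in Brd1+/- IMN. Its group medians were 393, 561, 919 and 696 TPM, higher in the IMN groups, but the ranges overlapped widely. In the limma fit of both genotypes, all 7 markers were higher with IMN, with a median log2 fold change of 0.37. Of the 7, 0 had an unadjusted p under 0.05, against 9.38% of all genes. Markers of 1 cell type are not independent, so that count does not show that myelin content was equal. After group means were removed, r with the log of the oligodendrocyte sum was 0.67 for Nr4a2. For Nr4a2 it was positive in each of the 4 groups, from 0.28 in Brd1+/- vehicle to 0.80 in WT IMN. It was -0.46 for Npas4, -0.55 for Nr4a1 and -0.38 for Nr4a3, negative in each group. Without WT vehicle replicate 1 (n = 35) the values were 0.63, -0.32, -0.43 and -0.21 in the same order. The 3 libraries with the highest sums, WT IMN replicate 7, Brd1+/- IMN replicate 6 and WT vehicle replicate 1, ranked 6, 5 and 3 of 36 for Nr4a2.

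**Figure D4:**
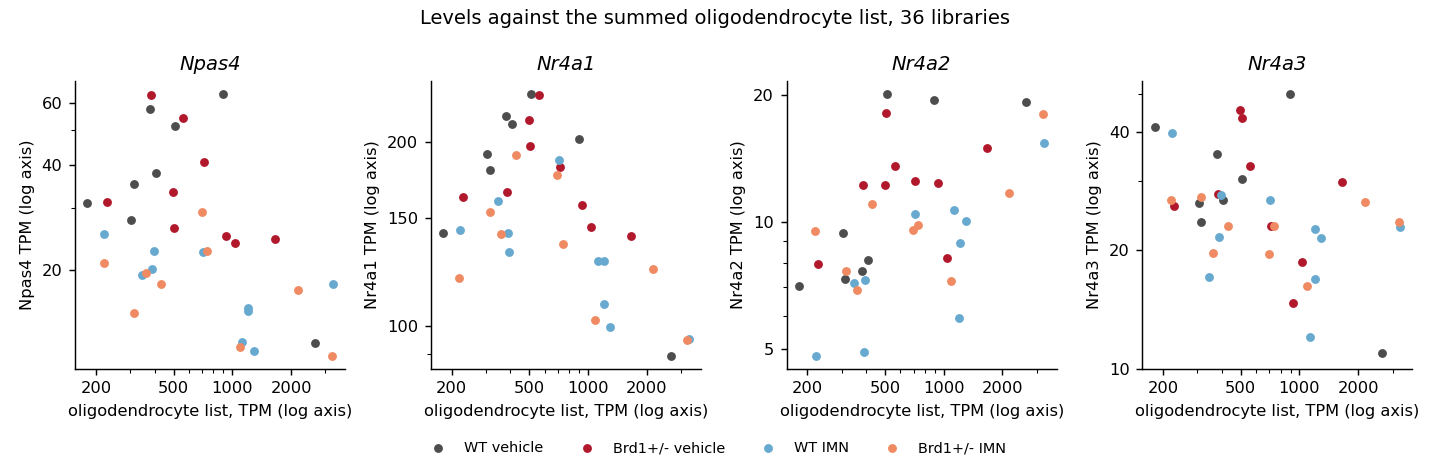
Level of each gene in TPM (y axes, log scale) against the summed level of 7 oligodendrocyte markers in TPM (x axes, log scale) in the 36 libraries, coloured by group. Nr4a2 is higher where the sum is higher, with r of 0.67 after group means are removed, whereas Npas4, Nr4a1 and Nr4a3 are lower, with r of -0.46, -0.55 and -0.38.

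With the oligodendrocyte sum as a covariate, a fit chosen after the data were seen, the Npas4 log2 difference in both genotypes was -0.86 (SE 0.15) and that of Nr4a1 -0.35 (SE 0.09). That of Nr4a2 was -0.48 (SE 0.12) and that of Nr4a3 -0.26 (SE 0.15). In WT mice the covariate moved Nr4a2 from -0.44 to -0.68 (SE 0.17) and Nr4a3 from -0.36 to -0.22 (SE 0.22). Among the genes that mark claustrum and the deepest cortical cells, where Nr4a2 is a marker too, r with Nr4a2 differed in sign. It was positive for Ccn2 (0.60), Nxph4 (0.42), Cplx3 (0.37) and Oprk1 (0.32). It was near 0 for Moxd1 (-0.03) and Gnb4 (-0.04), and negative for Lxn (-0.22) and Ntng2 (-0.32). The summed level of that list of 8 genes had an r of 0.37 with Nr4a2 and ran from 79.4 to 224.8 TPM over all groups, with group medians of 89.4 to 97.1. The remaining marker sums had r values between -0.35 and 0.40 with each of the 4 genes. The part of these cell types in the differences with IMN was not tested beyond that covariate.

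The genes around the 4 factors were followed in 6 lists, tested with limma and adjusted over all 25572 genes. The lists too were chosen with earlier results of these data known. Their counts and adjusted p-values therefore describe the lists and are not independent evidence. Of 19 other immediate-early genes, 18 had a log2 fold change below 0 in the fit of both genotypes, with a median of -0.39 against -0.0023 for all genes, and 3 fell at an adjusted p under 0.05 while none rose. At an unadjusted p under 0.01, 11 of the 19 were lower, as were 1.94% of all genes. In the fit of both genotypes without WT vehicle replicate 1, 10 of the 19 fell at an adjusted p under 0.05, with log2 fold changes between -1.26 and -0.42, where 0.665% of all genes passed in either direction. Egr1, a zinc finger factor, fell by 0.66 on the log2 scale (SE 0.13, adjusted p = 0.00939), from 297.0 ± 85.1 TPM (SD, n = 8) to 199.0 ± 40.1 (SD, n = 10) in WT mice and from 322.3 ± 78.5 (SD, n = 9) to 192.8 ± 67.04 TPM (SD, n = 9) in Brd1+/- mice. Arc, whose protein promotes the removal of AMPA receptors from synapses, fell by 0.67 (SE 0.13, adjusted p = 0.0108), from 276.9 ± 67.5 to 189.2 ± 44.9 TPM in WT mice and from 282.4 ± 82.9 to 161.8 ± 57.5 TPM in Brd1+/- mice (SD, group sizes as for Egr1). Gadd45b, a stress-response gene tied to DNA demethylation in neurons, fell by 0.43 (SE 0.09, adjusted p = 0.0305), although its adjusted p ran up to 0.0603 when single libraries were left out, with 30 of 36 such fits below 0.05. In WT mice alone none of the 19 passed, although 12 had an unadjusted p under 0.05, as did 6.6% of all genes. In Brd1+/- mice alone none passed either (smallest adjusted p = 0.488), and 10 had an unadjusted p under 0.05, as did 5.52% of all genes. When WT vehicle replicate 1 was left out, 4 of the 19 fell in WT mice, namely Gadd45b (log2 fold change -0.69, SE 0.09, adjusted p = 0.0047), the Krüppel-like factor gene Klf4 (-0.73, SE 0.12, adjusted p = 0.0411), Fosb (-0.86, SE 0.15, adjusted p = 0.0462) and Egr4 (-0.88, SE 0.17, adjusted p = 0.0493).

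Of 5 genes reported to depend on Npas4, Nptx2 passed in the fit of both genotypes. The other 4 did not pass with all libraries, while Bdnf passed too without WT vehicle replicate 1. With all libraries none of the 5 passed in 1 genotype alone, the smallest adjusted p by limma being 0.285 in WT mice and 0.488 in Brd1+/- mice. Nptx2 encodes a secreted pentraxin that gathers AMPA receptors on interneurons. Its level went from 100.9 ± 15.2 TPM (SD, n = 8) in WT vehicle to 62.8 ± 16.0 (SD, n = 10) in WT IMN, and from 89.97 ± 19.0 (SD, n = 9) to 59.1 ± 14.7 TPM (SD, n = 9) in Brd1+/- mice. Its log2 fold change in both genotypes was -0.66 (SE 0.11, adjusted p = 0.00279), and the adjusted p stayed between 0.000999 and 0.00666 with any 1 library left out. In WT mice without WT vehicle replicate 1 it was -0.79 (SE 0.15, adjusted p = 0.0493). Bdnf had a log2 fold change of -0.57 (SE 0.22, adjusted p = 0.667) in WT mice, -0.49 (SE 0.21, adjusted p = 0.852) in Brd1+/- mice and -0.53 (SE 0.15, adjusted p = 0.136) in both. With WT vehicle replicate 1 left out, the Bdnf value was -0.77 (SE 0.15, adjusted p = 0.0493) in WT mice and -0.62 (SE 0.13, adjusted p = 0.0178) in both genotypes. Within groups, r with Npas4 was 0.74 for Bdnf, 0.59 for Nptx2 and 0.55 for Plk2, a kinase of synaptic scaling, and -0.13 for Syt10 and -0.01 for Mdm2. Without WT vehicle replicate 1 and Brd1+/- vehicle replicate 6 (n = 34), the Bdnf r was 0.60.

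**Figure D5:**
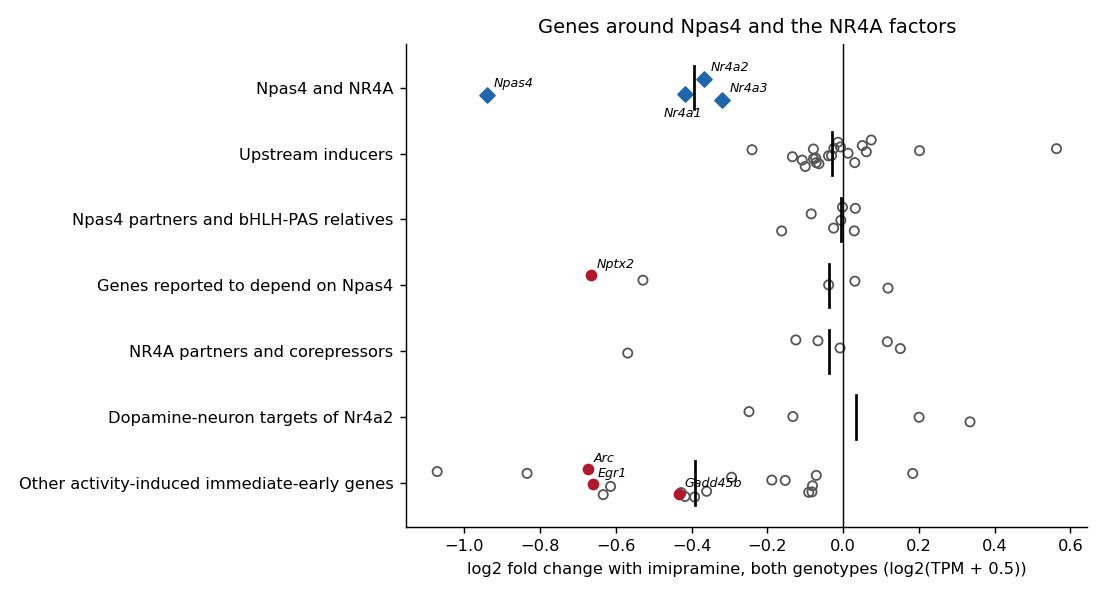
Log2 fold changes with imipramine in both genotypes (x axis, log2(TPM + 0.5) scale) for Npas4 and the NR4A genes and 6 lists of related genes (rows). Each point is 1 gene, filled red points passed an adjusted p of 0.05, blue diamonds are the 4 chosen genes, whose calls are not marked because they were chosen with these values known, and vertical bars are list medians. The lists were also chosen with earlier results of these data known, so the red points are descriptive too. Of the other immediate-early genes 18 of 19 lie below 0, with a median of -0.39, while the medians of the other lists lie between -0.04 and 0.03.

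None of the 21 upstream inducers passed the test in any of the comparisons of IMN with vehicle, and their median log2 fold change in both genotypes was -0.03, with 4 of 21 at an unadjusted p under 0.05, as were 9.38% of all genes. In WT mice the smallest p-values were those of Srf (log2 fold change -0.31, SE 0.09, adjusted p = 0.547), the serum response factor, and its coactivator gene Mrtfb (-0.16, SE 0.06, adjusted p = 0.694). In Brd1+/- mice Mef2c, a MEF2 factor of cortical excitatory neurons, had a log2 fold change of 1.17 (SE 0.26, adjusted p = 0.488), and the phosphatase subunit gene Ppp3ca one of -0.16 (SE 0.07, adjusted p = 0.878). The Mef2c levels were 103.2 ± 34.3 TPM (SD, n = 9) in Brd1+/- vehicle and 228.3 ± 77.5 (SD, n = 9) in Brd1+/- IMN, but 173.6 ± 100.2 (SD, n = 8) and 171.2 ± 97.1 TPM (SD, n = 10) in the WT groups. From mouse to mouse, the r of Srf was 0.66 with Nr4a3 and -0.11 with Nr4a2, and that of Cacna1c, an L-type calcium channel gene, was 0.52 with Npas4 and -0.29 with Nr4a2. Both genes were picked as high values among the 21.

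The partners of the 4 proteins did not pass the test either. Of 8 Npas4 partners and bHLH-PAS relatives, 7 were tested. In the fit of both genotypes their median log2 fold change was -0.01, with 1 at an unadjusted p under 0.05, as were 9.38% of all genes. Npas2 had -0.28 (SE 0.10, adjusted p = 0.665) in WT mice and -0.05 (SE 0.09, adjusted p = 0.992) in Brd1+/- mice, and Sim2 had 0.13 (SE 0.09, adjusted p = 0.935) in Brd1+/- mice. All 6 NR4A partners and corepressors were tested, with a median of -0.04 in both genotypes and 0 at an unadjusted p under 0.05. The retinoid X receptor gene Rxra had a log2 fold change of 0.20 (SE 0.14, adjusted p = 0.871) in WT mice and 0.10 (SE 0.13, adjusted p = 0.987) in Brd1+/- mice. Its relative Rxrb had -0.04 (SE 0.05, adjusted p = 0.936) in WT mice and -0.09 (SE 0.07, adjusted p = 0.947) in Brd1+/- mice. The corepressor gene Rcor1 had -0.24 (SE 0.09, adjusted p = 0.636) in WT mice, and Nrip1 had 0.20 (SE 0.12, adjusted p = 0.924) in Brd1+/- mice.

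Of 5 dopamine-neuron targets of Nr4a2, 4 were tested and none passed, with 1 at an unadjusted p under 0.05 in the fit of both genotypes, against 9.38% of all genes. Slc18a2, the vesicular monoamine transporter gene, had a log2 fold change of -0.43 (SE 0.12, adjusted p = 0.543) in Brd1+/- mice, from 3.56 ± 0.82 TPM (SD, n = 9) to 2.48 ± 0.29 (SD, n = 9). Ddc, for the enzyme that makes dopamine from L-DOPA, had 0.55 (SE 0.23, adjusted p = 0.709) in WT mice, and Th, for the rate-limiting enzyme of dopamine synthesis, had 0.54 (SE 0.41, adjusted p = 0.881). The receptor tyrosine kinase gene Ret had -0.14 (SE 0.19, adjusted p = 0.989) in Brd1+/- mice. The Th level did not exceed 4.26 TPM in any library and was listed at 0 in at least 1 library of each group.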

How the data were processed

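RNA from aCC punches of 36 mice was sequenced, 1 library per mouse, and all 36 were used in the groups their labels give. No batch is named in the labels. The authors aligned reads to GRCm38 with HISAT2 2.1.0, quantified genes with StringTie 1.3.4 and deposited TPM. By the study's methods, every sample passed a floor on clean reads. The depth of each library, strand use and the handling of reads matching several genes are not given in the sources used here, so no counting error was computed. Of 52636 genes, 52403 had a symbol.

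Values were transformed as log2(TPM + 0.5), which understates changes of low genes, and genes that reached 0.1 TPM in 8 or more libraries were tested by limma 3.58.1 in R 4.3.3 (intensity trend, two-sided, Benjamini-Hochberg adjustment over 25572 genes). Comparisons of 2 groups used their libraries only. The fit of both genotypes, with genotype as a term, and the interaction used all 36. The step was tested on simulated data with known changes. Tables and figures were made in Python 3.11.15 with numpy 2.4.6, pandas 2.3.3 and matplotlib 3.10.9.

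The members and lists were chosen with earlier results of these data known. Named genes were the 4 members, Brd1, list genes at an adjusted p under 0.05 or with the 2 smallest p-values of their list in WT or Brd1+/- mice, and the 5 genes most like each member. One gene that this rule names is not reported here. Marker genes, list genes given only with an r, Fosb and Egr4 were named after their values were seen. Alternatives were pseudocounts of 0.1 and 1, no filter, a mean of 1 TPM or more, median-ratio scaling, quantile normalization, 1 fit of all libraries, a replicate block, single libraries or both libraries that stood apart left out and, added later, the oligodendrocyte covariate. Promoters came from RefSeq (GRCm38.p6) and gene models from GENCODE.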

Additional observations from a re-analysis of the deposited data

Results flagged for a closer look

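One level stood apart from its group. Nr4a2 in Brd1+/- IMN replicate 6 was 17.96 TPM, while the next library of the 9 was at 11.7 TPM, a gap of 0.564 of the group's range against a critical value of 0.493 for 9 samples. The same library had 3224 TPM over the 7 oligodendrocyte markers, the second highest sum of all, and the lowest Npas4 (11.4 TPM) and Nr4a1 (95.1 TPM) levels of its group. The part of myelin content in this value was not tested. Such a test picks out about 1 in 20 groups by chance, and 16 groups (4 genes in 4 groups) were examined.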

How the results depend on the processing

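The 4 genes kept the direction of their difference with imipramine under every alternative run, in WT mice, in Brd1+/- mice and in both genotypes. No difference moved by more than 1 SD between replicates, but leaving out 1 library could hardly move a group mean that far. The sizes did move. In WT mice without WT vehicle replicate 1, the log2 difference went from -0.98 to -1.20 for Npas4 and from -0.36 to -0.55 for Nr4a3. In Brd1+/- mice without Brd1+/- vehicle replicate 6, it was -0.95 (SE 0.21) for Npas4 and -0.43 (SE 0.13) for Nr4a1. For Nr4a2 it was -0.26 (SE 0.18) and for Nr4a3 -0.26 (SE 0.19). For genotype and the interaction the sign of Npas4, Nr4a1 and Nr4a3 changed under some alternatives, so no direction is read there. Of the values of all 4 genes, 20 of 108 changed sign with vehicle, 14 of 112 under imipramine and 8 of 180 for the interaction. Nr4a2 stayed above 0 throughout, at 0.12 (SE 0.24), 0.26 (SE 0.20) and 0.15 (SE 0.32) in the same order. These SEs are close to or above the differences, so no direction is read for Nr4a2 either. Nptx2 and Egr1 passed in the fit of both genotypes under each alternative.

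Counts of genes at an adjusted p under 0.05 were less stable. In WT mice the limma count was 0, and 0 to 32 with single libraries left out. It was 32 without WT vehicle replicate 1, also where Brd1+/- vehicle replicate 6 was left out of the other groups. In Brd1+/- mice 2 genes became 0 with a pseudocount of 0.1 or 1, no filter, a mean of 1 TPM or more, quantile normalization or the oligodendrocyte covariate, 1 with median-ratio scaling or 1 fit of all libraries, 0 to 1 with single libraries left out, and 1 without Brd1+/- vehicle replicate 6. For genotype with vehicle, 0 (959 at an unadjusted p under 0.05) became 1 with a mean of 1 TPM or more, median-ratio scaling, quantile normalization or 1 fit of all libraries, 0 to 2 with single libraries left out, and 2 without both libraries. In both genotypes, 70 became 164 without both libraries and ran from 35 to 170 with single libraries left out (170 without WT vehicle replicate 1, 112 without Brd1+/- IMN replicate 7). The cause was not tested.

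Replicate numbers did not pair the samples: correlations of same-numbered libraries lay between -0.26 and 0.26, with 0 to 1 pairs over 0.1. With the replicate number as a block, the count was 42 in both genotypes and 0 in Brd1+/- mice, and Arc and Gadd45b had an adjusted p of 0.0547.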
